A study of Mus musculus with 13 samples.

Results

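Genes of the meiotic chromosome axis and of meiotic recombination were followed in oocytes of irradiated mouse ovaries. The list held 32 genes of 49585 in the annotated files, chosen for their known roles: 7 genes of the synaptonemal complex, 3 of the axis checkpoint, 4 of the meiotic cohesins, 4 of break formation, 7 of strand exchange, 5 of crossover formation and 2 of meiotic entry. The estimated reads were summed per gene in each of 13 libraries, and all 32 genes had reads in at least 12 of them. Of the 32, 25 had 10 or more estimated reads in every library.

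In meiotic prophase, homologous chromosomes are folded along an axis of cohesin and HORMA domain proteins, cut by the enzyme SPO11, repaired with the homolog as template by recombinases such as DMC1, and zipped together by the synaptonemal complex. Mouse oocytes pass these steps in the fetal ovary, and around birth they enter the dictyate arrest, in which the synaptonemal complex is taken apart while cohesin and crossovers hold the homologs together until ovulation. The oocytes of the early postnatal ovary are in this arrest, in primordial or in growing follicles. The question was which transcripts of the prophase machinery these libraries still held, and whether these followed dose or time after irradiation.

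The ovaries came from 5-day-old CD-1 females and were kept in culture overnight before irradiation with a caesium source, and 4 ovaries were pooled for a time point. At 0.5 Gy, 2 libraries each were made for 0, 1 and 4 h and 1 each for 2.5 and 6 h, and at 0.2 Gy 1 library was made for each of the 5 time points. The labels name a generation, which is 1 for replicate 1, 2 for replicate 2 and the 2.5 and 6 h libraries of 0.5 Gy, and 3 for all 0.2 Gy libraries, so dose and generation cannot be told apart. The 0 h libraries are the controls, which the study takes as not irradiated although their labels count the time from irradiation. All libraries shared strain, age, culture and the trypsin isolation of oocytes, and no separate animals are named for the replicates, so p-values measure the spread between these pools. Pooled RNA cannot show whether a level differed through fewer cells or through less RNA per cell.

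The labelled cell type was checked by markers. All 12 oocyte markers had reads in every library, and their summed level ran from 2431 TPM (a level scaled to transcript length and library size) at 6 h of 0.2 Gy to 3585 TPM at 4 h of 0.2 Gy. Markers of other ovarian cells were present too, with none of the 25 at 0 in any library: the 8 granulosa cell markers summed to 611.6 to 1145 TPM, the 7 stroma markers to 289.8 to 503.2 TPM, the 3 endothelium markers to 4.78 to 10.4 TPM and the 7 blood markers to 1363 to 8230 TPM. The libraries held between 15709549 and 30430104 estimated reads, with the fewest in replicate 2 of 0 h at 0.5 Gy. A count of 0 allows up to 3 reads, which covers counting error only.

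The transcripts of the prophase machinery were sorted by their level before irradiation into 3 bands, with fixed cuts at 1 and 10 TPM. In the mean of the 3 libraries of 0 h, 9 genes reached 10 TPM or more, 10 lay between 1 and 10 TPM and 13 were below 1 TPM, where the median of 21885 protein-coding genes was 1.26 TPM. The upper band held structural proteins of the synaptonemal complex (*Sycp3*, *Syce2*, *Syce1*, *Tex12*), the cohesin subunit gene *Smc1b*, and the strand exchange genes *Mnd1*, *Tex15*, *Hsf2bp* and *Psmc3ip*. The lower band held all but 1 of the 4 break formation genes, both genes of meiotic entry and both meiotic kleisins. The order was loose within the bands and across the cut at 10 TPM, where the 0 h libraries of *Tex12* and *Trip13* overlapped. Among the 31 pairs of neighbours in the order of mean levels, only 4 pairs had 0 h libraries that did not overlap: *Sycp3* above *Mnd1*, *Sycp1* above *Hormad1*, *Stag3* above *Msh5* and *Msh4* above *Hormad2*.

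**Figure D1:**
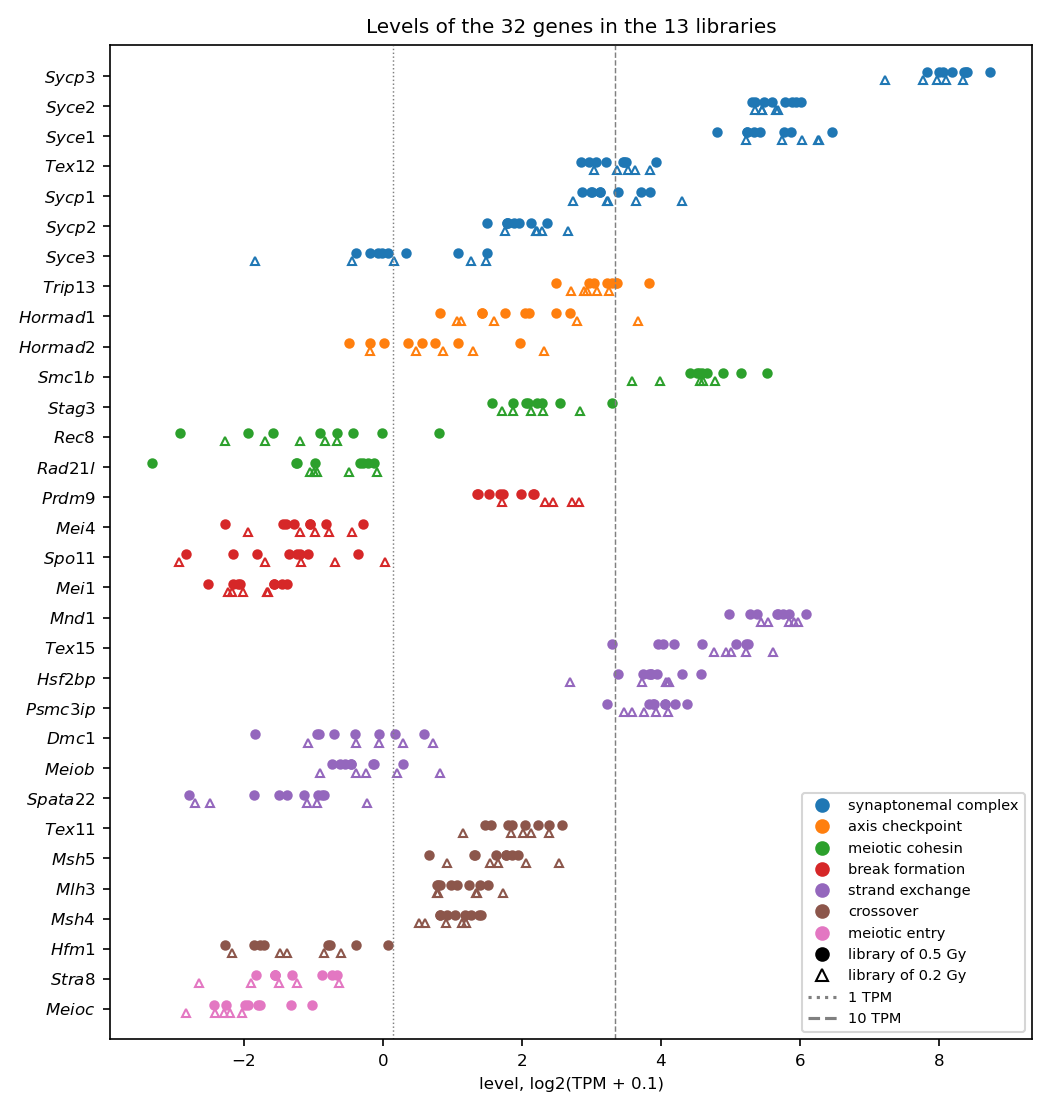
Level of each of the 32 genes in each library, as log2(TPM + 0.1), ordered by role (colours) and mean level at 0 h. Filled circles are the 8 libraries of 0.5 Gy and open triangles the 5 of 0.2 Gy, and *Sycp3* lies to the right of every other gene while the break formation genes other than *Prdm9*, the meiotic kleisins and both meiotic entry genes have their points mostly left of the dotted line at 1 TPM.

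*Sycp3*, which encodes the axial element protein of the synaptonemal complex (GRCm38 10:88459569-88473236, plus strand, ENSMUSG00000020059), was the most abundant of the list. Its 0 h levels were 266.6 and 335.0 TPM at 0.5 Gy and 217.6 TPM at 0.2 Gy. The mean of 273.0 ± 59.0 TPM (SD, n = 3) was above that of 99.0% of the protein-coding genes, at rank 209, and *Sycp3* made up 53.2%, 50.2% and 41.4% of the summed TPM of the 32 genes in these libraries. *Mnd1*, a partner of the recombinases in strand invasion, followed with 51.4, 68.2 and 57.1 TPM in the same order, a mean of 58.9 ± 8.57 TPM. *Syce2* and *Syce1*, of the central element, had means of 49.95 ± 10.2 and 44.5 ± 19.1 TPM, and the 3 libraries of each overlapped.

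The remaining abundant genes lay close to each other. *Tex15*, needed for recombinase loading in male meiosis and for germline transposon silencing, had 9.71 and 33.8 TPM in the 0 h libraries of 0.5 Gy and 30.6 TPM at 0.2 Gy, so its replicates differed 3.48-fold. *Smc1b*, the meiotic SMC1 subunit that keeps sister chromatids together through the arrest, had 21.2, 23.9 and 15.8 TPM. *Hsf2bp*, which acts in recombinase loading, had 14.1, 14.4 and 17.1 TPM, and *Psmc3ip* (HOP2), the partner of MND1, had 14.1, 16.5 and 11.02 TPM. Each of these 4 genes stood above at least 83.8% of protein-coding genes. The means of the partners *Mnd1* and *Psmc3ip* were 58.9 and 13.9 TPM.

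Opposite these stood transcripts near the floor. *Spo11*, the gene of the break-forming enzyme, had 0.125 and 0.0395 TPM at 0 h of 0.5 Gy and 0.519 TPM at 0.2 Gy, on 18.0, 3.40 and 64.4 estimated reads. *Meioc* and *Stra8*, which act at the start of the meiotic programme, had means of 0.134 ± 0.0460 and 0.284 ± 0.143 TPM, and *Mei1*, required for break formation, of 0.176 ± 0.0878 TPM. *Rec8* and *Rad21l*, the meiotic kleisins, had 0.509 ± 0.391 and 0.474 ± 0.214 TPM. *Dmc1*, the meiotic recombinase, had 0.718 ± 0.727 TPM, *Meiob* and *Spata22*, whose products bind single-stranded DNA together, 0.599 ± 0.0846 and 0.330 ± 0.138 TPM, and *Mei4* and the helicase gene *Hfm1* 0.394 ± 0.209 and 0.375 ± 0.249 TPM. *Hormad2* and *Syce3* closed the band from above at 0.892 ± 0.352 and 0.858 ± 0.271 TPM. *Prdm9*, which marks the sites of breaks by histone methylation, was the break formation gene above 1 TPM, with 4.04 ± 1.12 TPM.

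The 10 genes between 1 and 10 TPM ran from *Trip13*, the AAA+ ATPase that removes HORMA domain proteins from the axis, at 9.70 ± 4.33 TPM to *Msh4* at 2.03 ± 0.416 TPM. They included *Sycp1* (transverse filament, 8.84 ± 0.370 TPM), *Hormad1* (5.20 ± 1.80 TPM), *Sycp2* (4.30 ± 0.867 TPM), *Tex11* (4.27 ± 1.59 TPM), *Stag3* (3.98 ± 0.982 TPM), and the crossover genes *Msh5* (2.23 ± 0.681 TPM) and *Mlh3* (2.04 ± 0.460 TPM). *Msh4* and *Msh5*, whose products form a heterodimer, overlapped in their 0 h libraries.

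Promoters are shown for the most abundant gene, for 2 cohesin genes of the upper and middle band, for the gene that lay lower in all late libraries of 0.5 Gy, and for a kleisin near the floor. They were taken from RefSeq (GRCm38.p6), which matched 28 of the 32 genes with 33 promoters of 250 bases before and 50 after the start, and the 250 bases before the start are printed 5′ to 3′. Capitals mark matches, on either strand, to CACGTG (the E-box letters), GCGGGAA (letters of E2F and E2F6 sites) or CNCCTCAG (letters of the STRA8 motif).
Sycp3 (chr10:88459337-88459586, plus strand): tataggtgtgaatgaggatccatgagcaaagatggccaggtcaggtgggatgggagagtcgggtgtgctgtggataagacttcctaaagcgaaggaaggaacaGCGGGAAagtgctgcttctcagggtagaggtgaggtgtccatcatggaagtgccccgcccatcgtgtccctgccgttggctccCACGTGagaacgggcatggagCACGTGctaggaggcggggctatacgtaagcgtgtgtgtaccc
Smc1b (chr15:85131958-85132207, minus strand): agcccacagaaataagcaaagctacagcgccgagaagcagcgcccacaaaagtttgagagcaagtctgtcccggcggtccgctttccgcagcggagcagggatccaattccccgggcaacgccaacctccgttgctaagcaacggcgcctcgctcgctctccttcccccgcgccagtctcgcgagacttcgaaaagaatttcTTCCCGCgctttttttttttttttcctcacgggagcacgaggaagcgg
Stag3 (chr5:138280259-138280508, plus strand): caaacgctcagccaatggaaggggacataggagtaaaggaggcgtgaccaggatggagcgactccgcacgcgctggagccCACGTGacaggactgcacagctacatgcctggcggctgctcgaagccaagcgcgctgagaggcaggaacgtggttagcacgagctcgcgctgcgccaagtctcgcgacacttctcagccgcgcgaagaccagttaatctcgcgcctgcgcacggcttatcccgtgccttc
Meioc (chr11:102665335-102665584, plus strand): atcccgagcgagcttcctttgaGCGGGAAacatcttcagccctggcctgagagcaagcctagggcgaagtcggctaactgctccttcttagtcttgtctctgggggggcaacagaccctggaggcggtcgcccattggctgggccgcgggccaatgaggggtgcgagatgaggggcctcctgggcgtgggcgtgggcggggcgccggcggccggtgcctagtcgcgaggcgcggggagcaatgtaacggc
Rad21l (chr2:151668534-151668783, minus strand): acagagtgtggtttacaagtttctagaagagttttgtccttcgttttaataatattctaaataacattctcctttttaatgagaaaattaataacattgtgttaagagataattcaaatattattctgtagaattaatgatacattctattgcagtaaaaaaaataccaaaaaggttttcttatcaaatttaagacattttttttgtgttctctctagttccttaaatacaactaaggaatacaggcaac

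Over the 33 promoters in full, 7 held CACGTG (21.2%, against 7.15% of all 32851 promoters of the table), 12 held GCGGGAA (36.4% against 4.6%) and 7 held CNCCTCAG (21.2% against 7.94%). Some of the 28 genes enter with more than 1 promoter, and in 2 places the marked letters of matches overlapped. Of the 9 promoters of the genes at 10 TPM or more, 3 held CACGTG and 5 held GCGGGAA, and of the 12 promoters of the genes below 1 TPM, 0 and 2 did. Median GC content was 60.7% and the median observed over expected CpG ratio 0.713, against 52.7% and 0.384 over all promoters. The *Rad21l* promoter had a GC content of 29.0%, and that of *Stag3* 61.3%. A match is a string of letters and does not show a bound factor.

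The meiotic cohesin subunits were compared with their mitotic relatives by their share of the family's summed TPM in each library. *Smc1b* held the larger part of the SMC1 transcripts, with a median share of 57.4% over the 13 libraries and a range of 39.7% to 69.5%, beside *Smc1a* at a median of 18.9 TPM. It was above 50% in 12 libraries, and the lowest share belonged to 6 h of 0.2 Gy. The other meiotic subunits held small shares. *Rec8* had a median of 4.89% (0.306% to 14.0%) and *Rad21l* of 5.90% (0% to 10.6%) of the kleisins, where *Rad21* had a median of 7.91 TPM. *Stag3* held 9.78% (3.31% to 18.4%) beside *Stag1* and *Stag2* at 15.3 and 34.0 TPM. By estimated reads, which are not scaled to length, the median shares were 0.741% for *Rec8*, 2.53% for *Rad21l* and 5.22% for *Stag3*. The mitotic relatives are also used by granulosa and stroma cells, whose markers were present in every library, and their part in these shares was not tested.

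**Figure D2:**
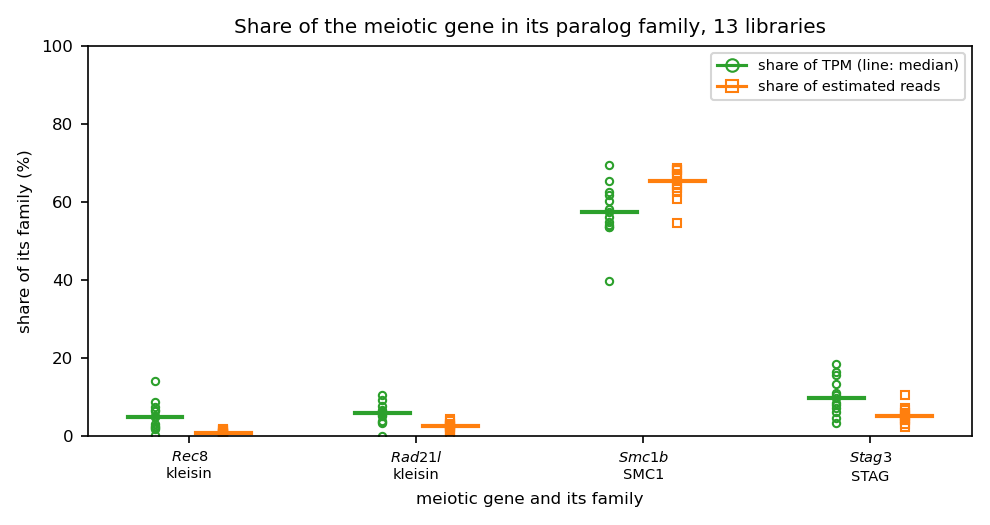
Share of each meiotic cohesin gene in the summed level of its paralog family, in percent, with 1 point per library and lines at the median of 13 libraries. Circles are shares of TPM and squares shares of estimated reads, and *Smc1b* alone has its medians above 50%, at 57.4% of TPM and 65.3% of reads.

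Not all reads of a gene were assigned to transcripts annotated as protein-coding. Over the 13 libraries together, the median share of reads on protein-coding transcripts was 89.9% for the 25 genes with 10 reads in every library and 93.2% for the 14155 protein-coding genes with as many, and 7 of the 25 (28.0%) were below 50%, against 12.4% of all. The 7 were *Psmc3ip* (20.5%), *Msh5* (21.2%), *Msh4* (27.8%), *Trip13* (30.4%), *Hormad2* (33.0%), *Stag3* (45.6%) and *Syce2* (48.5%). In *Psmc3ip*, a transcript with a retained intron took a median of 56.6% of the reads of a library (37.3% to 67.1%), and in *Trip13* 1 annotated as a target of nonsense-mediated decay took 60.5% (50.9% to 69.6%). *Smc1b*, *Mnd1*, *Syce1*, *Tex12* and *Tex11* were among the genes with over 99% of their reads on such transcripts. These shares are salmon's division of short reads between overlapping transcripts and carry the error of that division.

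Some genes share sequence with others, which limits the precision of their sums. Of the 30-base stretches of the transcripts of *Spata22*, 80.0% also occur in the annotated gene *Gm49340*, which overlaps it on the same strand and had at most 0.0699 TPM. For *Mnd1* the share was 57.3%, mostly with its pseudogene *Mnd1-ps* (at most 0.826 TPM), and for *Hormad1* 37.0%, mostly with the pseudogene *Gm15529* (at most 0.137 TPM). *Sycp3* overlaps *Chpt1* on the opposite strand over 52.2% of its exonic bases, and *Psmc3ip* overlaps *Mlx* over 21.2%. Without strand, reads from such partners cannot be told apart, and their levels reached 5.19 TPM for *Chpt1* and 20.1 TPM for *Mlx*.

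The course after irradiation was tested in fits over all genes, and levels are given as CPM, the count of a gene scaled to library size with edgeR's TMM factors. Calling a gene took both an adjusted p (Benjamini-Hochberg) below 0.05 and a log2 fold change beyond 1 in either direction. At 0.5 Gy the times were each set against 0 h, and the 4 late libraries (2.5, 4 and 6 h) against the 4 early ones (0 and 1 h), and at 0.2 Gy the 2 late libraries (4 and 6 h) against the 2 early ones. The fit for 0.2 Gy and for the difference between the doses held the 11 libraries at 0, 1, 4 and 6 h, so the 2.5 h libraries of both doses were left out of that difference, and it is not the difference of the late against early changes given for each dose. Early and late groups mix times, so their members are not repeats of 1 condition. Against 0 h, the lone libraries at 2.5 and 6 h of 0.5 Gy took their spread from the other libraries. At 0.2 Gy the spread came from all 11 libraries of the fit. It included the differences between the 2 times within each group of 0.2 Gy.

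No gene of the list was called by edgeR's quasi-likelihood test in any of these comparisons. Against 0 h at 0.5 Gy, 0 of 32 were called at 1, 2.5, 4 and 6 h, where edgeR called 0% of 28468 genes at each time. DESeq2's Wald test also called 0 of the list, of 32 genes with an adjusted p at 1 h and 31 at the later times, against 0.0834%, 0.407%, 0.608% and 0.712% of all genes it tested. Against 0 h, its fold changes were shrunken towards no change by a prior that the study also used. In its other comparisons they were not shrunken, so the cut on fold change was not the same. Late against early, edgeR called 0 of 31 at 0.5 Gy (0.128% of 22588 genes) and 0 of 32 at 0.2 Gy (0.0462% of 28162), and 0 of 32 in the difference between the doses (0.032%). DESeq2 called 1 of 32 at 0.5 Gy, *Meioc* (0.978% of all genes), 1 of 32 at 0.2 Gy, *Spata22* (0.578%), and 0 of 32 in the difference (0.515%).

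At an unadjusted p under 0.05 by edgeR, at most 3 genes of the list passed in either direction, with the share of all genes in brackets. For lower genes the list's share lay above that of all genes at 2.5 and 4 h and late against early at both doses, each on 1 to 3 genes. At 1 h no member was higher (2.17% of all genes) and none lower (1.81%). At 2.5 h 0 were higher (3.01%) and 2 were lower, *Rad21l* and *Spata22* (2.57%), at 4 h 0 were higher (3.43%) and 1 was lower, *Hormad1* (2.4%), and at 6 h 1 was higher, *Stag3* (3.63%), and 0 lower (2.31%). Late against early at 0.5 Gy, 0 of 31 were higher (4.77%) and 2 lower, *Meioc* and *Syce2* (4.29%), and at 0.2 Gy 0 of 32 were higher (3.03%) and 3 lower, *Spata22*, *Meioc* and *Tex11* (4.26%). In the difference between doses 1 was higher at 0.5 Gy, *Spata22* (3.93%), and 1 lower, *Tex15* (4.2%).

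The median log2 fold change of the list late against early was -0.11 at 0.5 Gy (31 genes, 12 up and 19 down in sign) and -0.09 at 0.2 Gy (32 genes, 11 up and 21 down in sign), beside -0.02 and -0.03 over all genes tested. At 0.2 Gy the sign turned with single libraries: without 6 h the median was 0.0899, without 1 h it was 0.001, and without 4 h it was -0.44. The oocyte markers had medians of -0.11 and 0.04 in the same comparisons. The precision allowed some bounds. For 16 of 31 genes at 0.5 Gy and 14 of 32 at 0.2 Gy, the 95% interval of the log2 fold change lay within -1 and 1, so a 2-fold change lay outside it.

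**Figure D3:**
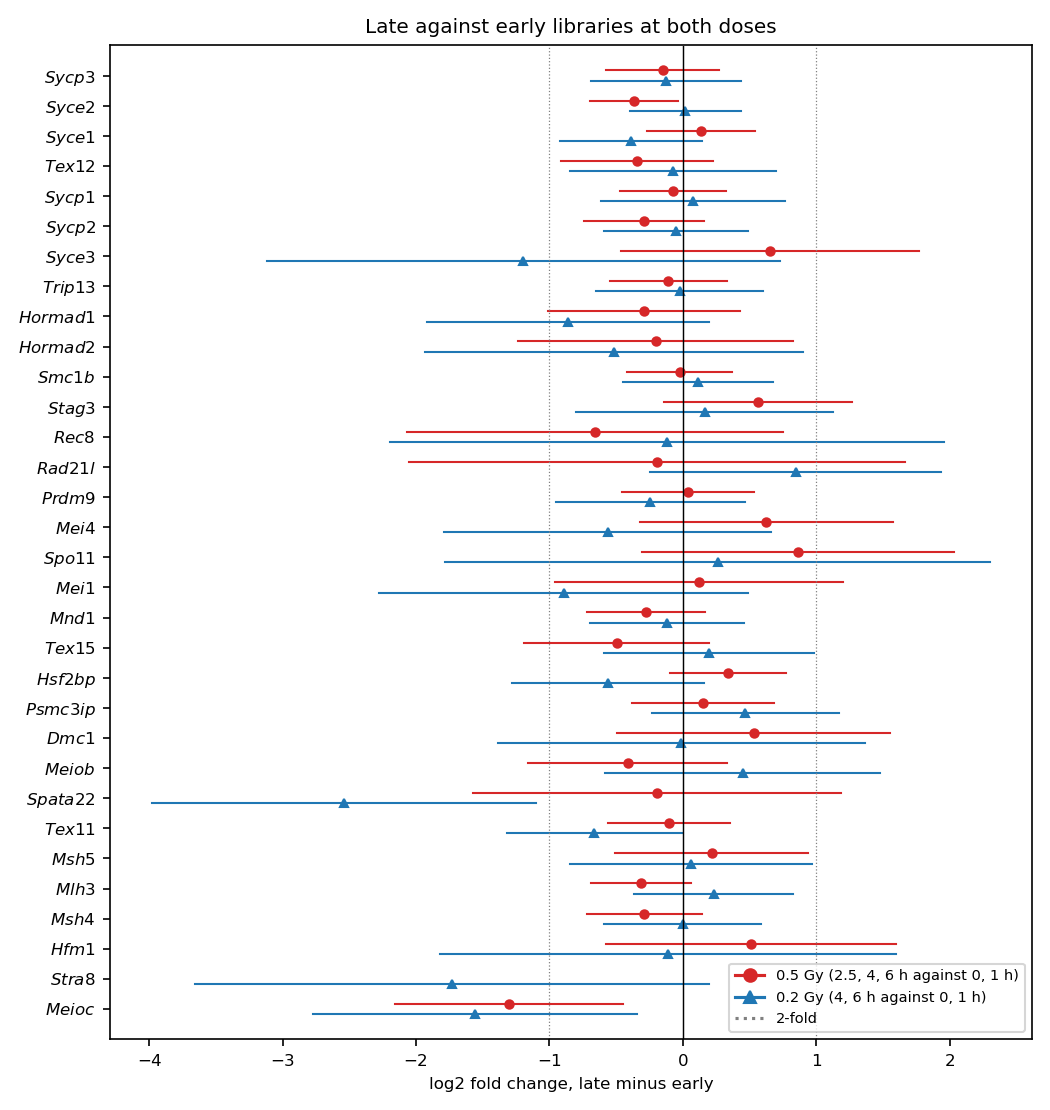
Log2 fold change late minus early for each gene, with its 95% interval from edgeR's quasi-likelihood fit, at 0.5 Gy (red circles, 4 libraries against 4) and 0.2 Gy (blue triangles, 2 against 2). *Meioc* lies at -1.30 and -1.56, *Spata22* at -2.54 at 0.2 Gy, and *Sycp3*, *Smc1b* and *Mnd1* have intervals inside the dotted lines of a 2-fold change at both doses.

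Among the structural genes of the synaptonemal complex, *Sycp3* had 1100 and 1066 CPM at 0 h, 1206 and 946.3 CPM at 1 h, 1223 CPM at 2.5 h, 1191 and 753.8 CPM at 4 h and 734.1 CPM at 6 h of 0.5 Gy. At 0.2 Gy it had 708.0, 828.5, 1006, 852.1 and 565.6 CPM from 0 to 6 h. The libraries of 6 h were the lowest of each dose, but the 4 h replicates of 0.5 Gy differed by 0.659 on the log2 scale. That was further apart than early and late lay. Its late minus early log2 fold change was -0.15 at 0.5 Gy (SE 0.19, 95% interval -0.58 to 0.27, adjusted p = 0.856) and -0.13 at 0.2 Gy (SE 0.26, interval -0.69 to 0.43, adjusted p = 0.936).

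*Syce2*, of the central element, showed tighter replicates. At 0.5 Gy it had 81.8 and 84.9 CPM at 0 h, 108.4 and 94.9 CPM at 1 h, 84.0 CPM at 2.5 h, 66.8 and 67.4 CPM at 4 h and 70.3 CPM at 6 h. The 4 and 6 h libraries were below all earlier ones, and the 2.5 h library lay among the 0 h values. Its log2 fold change was -0.36 (SE 0.15, interval -0.69 to -0.04, adjusted p = 0.501). At 0.2 Gy the 5 libraries had 69.7, 80.6, 68.4, 78.9 and 74.6 CPM, with no order in time and a log2 fold change of 0.02 (SE 0.19).

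*Syce1*, its neighbour in the central element, had 63.2 and 51.5 CPM at 0 h, 66.8 and 69.7 CPM at 1 h, 88.3 CPM at 2.5 h, 58.7 and 76.6 CPM at 4 h and 53.1 CPM at 6 h of 0.5 Gy. At 0.2 Gy, 71.9 and 69.1 CPM at 0 and 1 h stood above 64.5 and 44.1 CPM at 4 and 6 h, with 83.4 CPM at 2.5 h between them in time and above them all. The late and early libraries overlapped at 0.5 Gy and did not at 0.2 Gy, where the log2 fold change was -0.39 (SE 0.25, adjusted p = 0.759). *Syce3*, a small central element gene with 3 to 49 estimated reads per library, had 0.929, 0.472, 0.608 and 0.597 CPM early and 1.65, 1.40, 0.682 and 0.413 CPM late at 0.5 Gy. Its values at 0.2 Gy were 0.409, 1.49, 1.70, 0.111 and 0.721 CPM, and the groups overlapped at both doses (log2 fold changes 0.65, SE 0.51, and -1.20, SE 0.89). The other genes of the complex, *Sycp1*, *Sycp2* and *Tex12*, had late against early changes between -0.34 and -0.08 at 0.5 Gy and between -0.08 and 0.07 at 0.2 Gy, with adjusted p of at least 0.709.

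**Figure D4:**
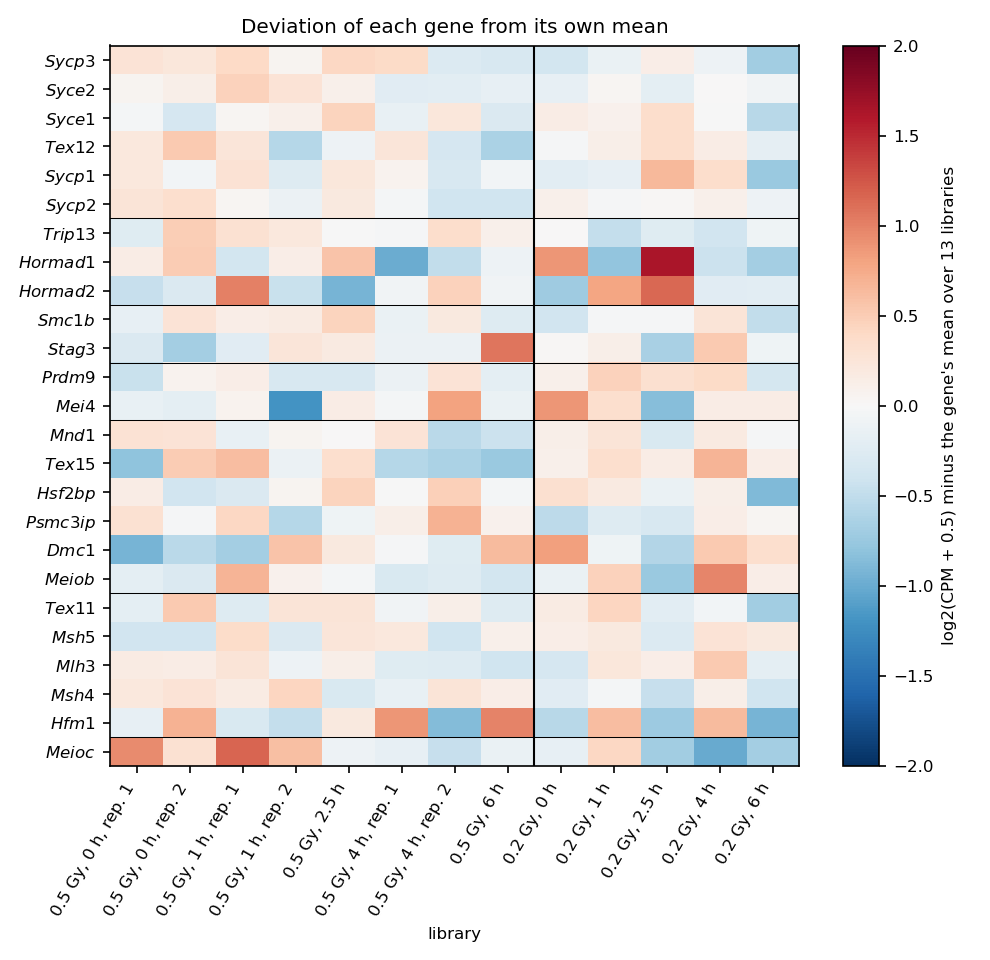
Deviation of the 25 genes with 10 reads in every library from their own mean over 13 libraries, as log2(CPM + 0.5), with genes grouped by role between lines and the doses parted by the vertical line. No column is of one colour throughout, *Meioc* is red in the early and blue in the late libraries of 0.5 Gy, *Stag3* is highest at 6 h of 0.5 Gy, and *Hormad1* at 2.5 h of 0.2 Gy.

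The axis checkpoint genes differed in their spread. *Hormad1*, which encodes a HORMA domain protein of the axis, ranged from 8.29 to 53.8 CPM, a 6.49-fold range, and was lower at 4 h than at 0 h of 0.5 Gy with a log2 fold change of -1.07 (SE 0.38, adjusted p = 0.826). *Hormad2* ranged from 1.73 to 8.84 CPM, and its replicates at 1 h differed by 1.45 on the log2 scale. *Trip13* stayed within 16.9 and 33.5 CPM, with late against early changes of -0.11 and -0.02.

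Of the cohesin genes, *Smc1b* had 231.0 and 314.8 CPM at 0 h, 285.2 and 290.2 CPM at 1 h, 354.8 CPM at 2.5 h, 238.1 and 299.3 CPM at 4 h and 216.5 CPM at 6 h of 0.5 Gy. At 0.2 Gy it had 199.4, 255.9, 256.6, 310.9 and 185.7 CPM. Early and late libraries overlapped at both doses, and the log2 fold changes were -0.02 (SE 0.18, interval -0.42 to 0.37, adjusted p = 0.978) and 0.11 (SE 0.26, interval -0.45 to 0.67, adjusted p = 0.945).

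*Stag3*, the meiotic STAG subunit, had 9.98 and 7.55 CPM at 0 h, 10.5 and 14.7 CPM at 1 h, 14.0 CPM at 2.5 h, 11.4 and 11.3 CPM at 4 h and 26.6 CPM at 6 h of 0.5 Gy. The single 6 h library was above all 12 others, with a log2 fold change against 0 h of 1.64 (SE 0.43, interval 0.66 to 2.62, adjusted p = 0.647), and there is no second library of that time and dose. At 0.2 Gy the values were 12.6, 13.5, 7.69, 17.9 and 11.6 CPM, and the 6 h library lay among the earlier ones. Less than 50% of its reads were on protein-coding transcripts.

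The kleisins gave few reads. *Rec8*, the kleisin of sister cohesion in both divisions, had 0.404, 1.55, 0.648 and 2.16 CPM early and 0.863, 0.195, 1.33 and 0.638 CPM late at 0.5 Gy, and the groups overlapped. Its values at 0.2 Gy were 0.350, 1.33, 0.555, 1.04 and 0.521 CPM, and the late against early changes were -0.66 (SE 0.65) and -0.12 (SE 0.96).

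*Rad21l*, the kleisin of early prophase, had 2.02, 3.37, 1.82 and 3.84 CPM early at 0.5 Gy and 3.78 and 2.16 CPM at 4 h and 3.75 CPM at 6 h, but no read at 2.5 h. Against the 0 h mean of 2.70 CPM, and with the 3 reads that a count of 0 allows (0.113 CPM in this library), the 2.5 h library was at least 24.0-fold lower, at an unadjusted p of 0.000357 and an adjusted p of 0.488 in the edgeR fit of all 8 libraries. At 0.2 Gy the 2.5 h library held 1.92 CPM on 52.1 estimated reads, close to 1.96 and 2.15 CPM at 0 and 1 h, and 4 and 6 h held 4.01 and 3.45 CPM. So the late libraries of 0.2 Gy lay above the early ones, with a log2 fold change of 0.84 (SE 0.50, adjusted p = 0.746), and those of 0.5 Gy did not.

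The break formation genes showed no common direction. *Spo11* had 0.727, 0.202, 1.54 and 0.522 CPM early and 1.31, 1.28, 1.78 and 1.16 CPM late at 0.5 Gy, and 1.87, 0.546, 0.888, 2.60 and 0.320 CPM at 0.2 Gy. Its log2 fold change of 0.86 at 0.5 Gy (SE 0.54, adjusted p = 0.668) was the largest positive value of the list, on a gene with as few as 3.40 reads in a library, and the groups overlapped. *Mei4*, a part of the break-forming complex with REC114, had 2.54, 2.43, 3.04 and 0.969 CPM early and 3.23, 2.76, 5.38 and 2.55 CPM late at 0.5 Gy (log2 fold change 0.63, SE 0.44). At 0.2 Gy it moved the other way, from 5.67 and 3.76 CPM at 0 and 1 h to 3.23 and 3.21 CPM at 4 and 6 h, with 1.37 CPM at 2.5 h (log2 fold change -0.56, SE 0.57).

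*Mei1* had 2.50, 0.607, 2.27 and 1.08 CPM early and 1.20, 2.22, 1.40 and 2.25 CPM late at 0.5 Gy, which overlapped. At 0.2 Gy, 2.10 and 2.18 CPM at 0 and 1 h stood above 0.964 and 1.36 CPM at 4 and 6 h, with 1.04 CPM at 2.5 h (log2 fold change -0.89, SE 0.64, adjusted p = 0.782). *Prdm9* stayed between 13.01 and 24.9 CPM, with changes of 0.04 and -0.24 late against early.

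In strand exchange, *Tex15* had a median of 449.8 CPM over the 13 libraries. At 0.5 Gy it had 234.9 and 579.3 CPM at 0 h, 626.8 and 376.2 CPM at 1 h, 516.8 CPM at 2.5 h, 273.7 and 262.8 CPM at 4 h and 242.8 CPM at 6 h. The 4 and 6 h libraries lay close to replicate 1 of 0 h, which was the lowest of all 13, and the log2 fold change was -0.50 (SE 0.32, interval -1.19 to 0.20, adjusted p = 0.680). At 0.2 Gy the values were 437.6, 518.0, 455.1, 655.1 and 449.8 CPM, a change of 0.20 (SE 0.36). In the fit without the 2.5 h libraries the change at 0.5 Gy was -0.81 (SE 0.28, adjusted p = 0.445 by edgeR), and the difference between the doses was -1.01 (SE 0.46, adjusted p = 0.609), between -1.26 and -0.67 in the 11 fits without 1 library each.

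*Mnd1* had 125.4 and 123.6 CPM at 0 h, 91.8 and 105.7 CPM at 1 h, 102.6 CPM at 2.5 h, 122.9 and 70.3 CPM at 4 h and 75.3 CPM at 6 h of 0.5 Gy, and 111.1, 121.8, 83.0, 115.6 and 100.6 CPM at 0.2 Gy. Its changes were -0.27 (SE 0.20, interval -0.72 to 0.17) and -0.12 (SE 0.27), and the groups overlapped at both doses. For *Psmc3ip* the early libraries had 36.8, 29.4, 39.6 and 19.9 CPM and the late ones 28.1, 32.2, 48.4 and 31.5 CPM at 0.5 Gy. At 0.2 Gy, 4 and 6 h, with 32.7 and 30.6 CPM, lay above 0, 1 and 2.5 h, with 20.6, 24.8 and 23.7 CPM, at a log2 fold change of 0.47 (SE 0.32, adjusted p = 0.776).

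*Hsf2bp* had 31.9, 21.8, 23.3 and 29.8 CPM early and 39.3, 28.6, 40.0 and 27.8 CPM late at 0.5 Gy, with overlap and a change of 0.34 (SE 0.20, adjusted p = 0.651). At 0.2 Gy it ran 35.9, 32.4, 26.2, 31.3 and 15.3 CPM, so that the late libraries were lower, by a log2 fold change of -0.56 (SE 0.33, adjusted p = 0.742). Without the 2.5 h libraries the difference between the doses was 0.83 (SE 0.42, interval -0.08 to 1.73, adjusted p = 0.631). *Meiob* had 3.47, 3.24, 6.81 and 4.36 CPM early and 3.94, 3.19, 3.30 and 3.04 CPM late at 0.5 Gy, and 3.68, 5.76, 2.22, 8.46 and 4.53 CPM at 0.2 Gy, with changes of -0.41 (SE 0.34) and 0.45 (SE 0.47). *Dmc1* ranged from 1.17 to 5.11 CPM, and its replicates at 1 h had 1.499 and 4.213 CPM.

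*Spata22*, the partner of MEIOB, was low at 4 and 6 h of 0.2 Gy. It had 1.37 and 1.58 CPM at 0 and 1 h, 2.66 CPM at 2.5 h and 0.185 and 0.321 CPM at 4 and 6 h, on 47.3, 52.3, 71.6, 5.05 and 8.07 estimated reads. At 0.5 Gy it had 2.10, 0.607, 1.05 and 1.34 CPM early, 0.150 CPM at 2.5 h and 1.71, 1.0995 and 1.54 CPM at 4 and 6 h, so the low value was at 2.5 h, on 4.05 reads. The log2 fold change was -2.54 at 0.2 Gy (SE 0.66, interval -3.98 to -1.099, adjusted p = 0.444 by edgeR and 0.0499 by DESeq2) and -0.20 at 0.5 Gy (SE 0.63). In the fit without the 2.5 h libraries the change at 0.5 Gy was 0.17 (SE 0.46), and the difference between the doses was 2.71 (SE 0.80, adjusted p = 0.514 by edgeR and 0.120 by DESeq2). The gene shares most of its sequence with *Gm49340*, as given above.

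Of the crossover genes, *Tex11* had 37.3, 61.1, 35.5 and 51.1 CPM early and 51.2, 40.4, 46.3 and 35.4 CPM late at 0.5 Gy (log2 fold change -0.10, SE 0.21). At 0.2 Gy, 47.7 and 57.6 CPM at 0 and 1 h stood above 36.7, 40.9 and 26.1 CPM at 2.5, 4 and 6 h, at a log2 fold change of -0.66 (SE 0.30, interval -1.32 to -0.01, adjusted p = 0.683). *Mlh3*, *Msh4* and *Msh5* kept within 26.8 to 51.7, 12.2 to 23.3 and 3.49 to 6.24 CPM, with changes between -0.32 and 0.21 at 0.5 Gy and between -0.0016 and 0.23 at 0.2 Gy. *Hfm1* ranged from 1.36 to 6.53 CPM, and its 4 h replicates differed by 1.75 on the log2 scale.

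*Meioc*, which maintains the meiotic programme together with YTHDC2 (GRCm38 11:102663716-102682237, plus strand, ENSMUSG00000051455), was the gene whose late and early libraries parted at both doses. At 0.5 Gy it had 3.03 and 1.75 CPM at 0 h and 3.61 and 2.27 CPM at 1 h, and then 1.20 CPM at 2.5 h, 1.13 and 0.834 CPM at 4 h and 1.16 CPM at 6 h. At 0.2 Gy it had 1.14 and 1.94 CPM at 0 and 1 h and 0.629, 0.408 and 0.641 CPM at 2.5, 4 and 6 h. All late libraries were below all early ones of their dose, although the 0 h library of 0.2 Gy was as low as the late ones of 0.5 Gy. The same held for 2.12% of all genes tested at 0.5 Gy and 25.9% at 0.2 Gy, and the share that parted at both doses was not counted. *Meioc* had 11.2 to 89.1 estimated reads per library and the lowest mean TPM of the list at 0 h.

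The log2 fold change of *Meioc* was -1.30 at 0.5 Gy (SE 0.39, interval -2.16 to -0.45, adjusted p = 0.365 by edgeR and 0.0208 by DESeq2) and -1.56 at 0.2 Gy (SE 0.56, interval -2.77 to -0.35, adjusted p = 0.638 by edgeR and 0.282 by DESeq2). It stayed between -1.45 and -1.13 at 0.5 Gy and between -1.91 and -1.12 at 0.2 Gy in fits without 1 library each. Without the 2.5 h libraries the difference between the doses was 0.20 (SE 0.67, interval -1.26 to 1.67). On the scale of TPM the libraries of 0.5 Gy did not part. The early ones had 0.187, 0.110, 0.297 and 0.161 TPM and the late ones 0.195, 0.151, 0.0848 and 0.393 TPM. Those of 0.2 Gy parted, with 0.105 and 0.116 TPM at 0 and 1 h and 0.0879 and 0.0397 TPM at 4 and 6 h. The 2.5 h library of 0.2 Gy had 0.145 TPM. The share of *Meioc* reads given to its leading transcript, of 4573 bases, ran from 42.8% to 100% over the libraries. *Stra8*, the other gene of meiotic entry, had 1.30 to 19.5 estimated reads per library and was left out of the 0.5 Gy late against early fit by the filter on low counts. It had 0.444, 0.270, 0.243 and 0.224 CPM early and 0.488, 0.195, 0.265 and 0.525 CPM late at 0.5 Gy, and 0.292, 0.606, 0.444, 0.223 and 0.0401 CPM at 0.2 Gy (log2 fold change -1.73, SE 0.89, adjusted p = 0.714).

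**Figure D5:**
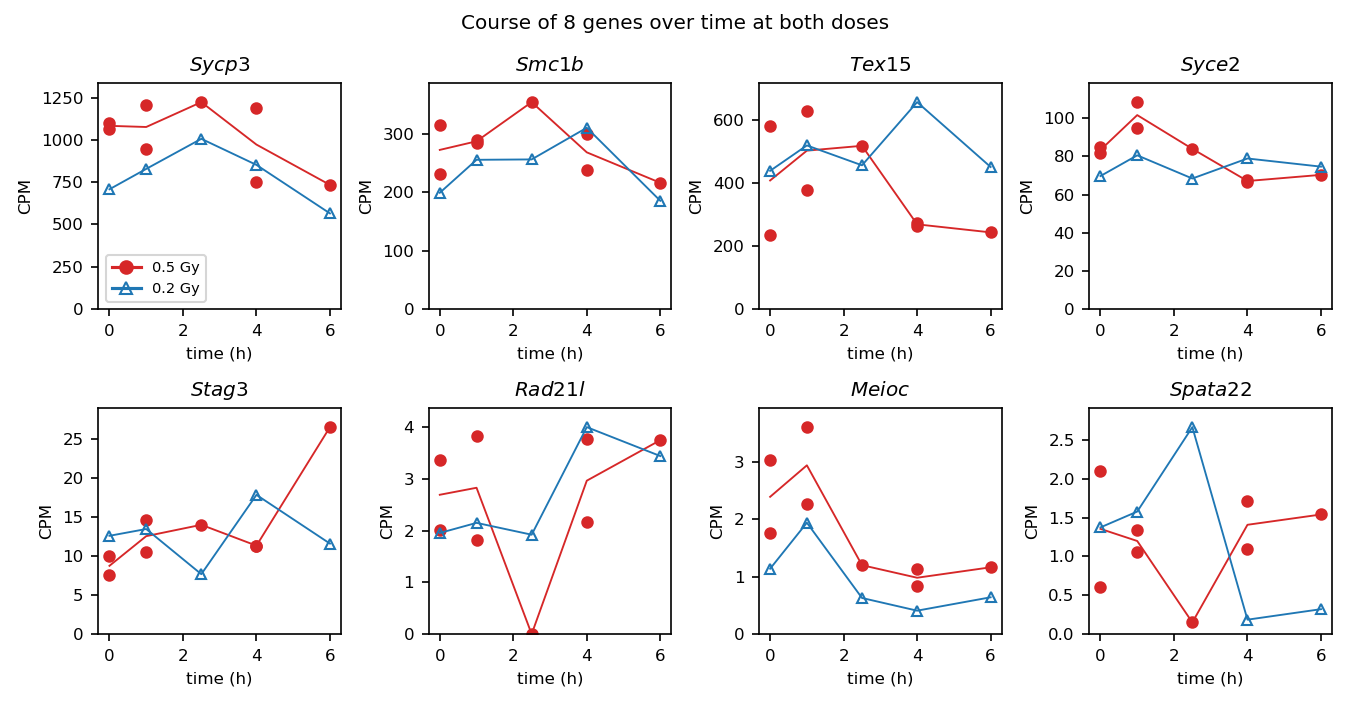
CPM of 8 genes against time after irradiation, with 1 point per library (red circles for 0.5 Gy, open blue triangles for 0.2 Gy) and lines through the mean of each time point. *Meioc* lies lower from 2.5 h on at both doses, *Rad21l* is at 0 in the 2.5 h library of 0.5 Gy alone, *Stag3* is highest in the single 6 h library of 0.5 Gy, and *Sycp3* and *Smc1b* show no separation of early and late.

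Counted over the list, at 0.5 Gy 0 of 31 genes had all late libraries above all early ones (3.16% of all genes tested) and 1 had them below, *Meioc* (2.12%). At 0.2 Gy 2 of 32 had both late libraries above both early ones, *Psmc3ip* and *Rad21l* (20.9% of all genes), and 8 had them below, *Hsf2bp*, *Tex11*, *Syce1*, *Stra8*, *Mei4*, *Meioc*, *Mei1* and *Spata22* (25.9%). With 2 libraries a side, the count below is near the share over all genes. The 6 h library of 0.2 Gy was the lowest of the 13 in TPM for 9 of the 32 genes, and for 5 of the 12 oocyte markers. The same was not counted over all genes, so these 2 counts cannot be read as a trait of either list. Late against early at 0.2 Gy, 7 of 8 granulosa cell markers, 6 of 7 stroma markers and all 7 blood markers were higher in sign, with medians of 0.44, 0.55 and 0.73 and none called. At 0.5 Gy the medians were 0.03, -0.20 and 0.41. The part of other cells in the changes of the listed genes was not tested.

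The doses were compared by the difference of their changes from 0 and 1 h to 4 and 6 h, with the 2.5 h libraries left out, and none of the 32 genes was called. The differences had a median of 0.14 beside 0.05 over all genes, and the 95% interval lay within -1 and 1 for 6 of the 32. For *Sycp3* it ran from -0.86 to 0.56, and for *Smc1b* from -0.98 to 0.43. For most genes of the list the interval reached beyond -1 or 1, so it did not exclude a 2-fold difference between doses.

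A further 30 genes of meiotic prophase were read for comparison. At 0 h, 7 of them had 10 TPM or more, 16 lay between 1 and 10 TPM and 7 below 1 TPM. *Fkbp6*, *Mus81* and *Rec114* led with 20.2, 19.2 and 15.7 TPM, and these were chosen after their values were seen. None of the 30 was called in any comparison by edgeR or DESeq2. At an unadjusted p under 0.05 by edgeR, late against early at 0.5 Gy, 1 of 29 tested was higher (4.77% of all genes) and 2 were lower (4.29%). At 0.2 Gy 0 of 30 were higher (3.03%) and 1 was lower (4.26%). The largest positive values at 0.5 Gy were those of *Majin*, of the telomere attachment complex, and of *Kash5*. Their log2 fold changes were 1.504 (SE 0.93, adjusted p = 0.668) and 0.79 (SE 0.36, adjusted p = 0.551). *Majin* was near the floor, with a mean of 0.217 TPM at 0 h and a lowest value of 0 TPM. The largest negative values were those of *Meikin*, the meiotic kinetochore regulator, with -0.79 (SE 0.44, adjusted p = 0.631), and of *Terb2*, a telomere partner of *Majin*, with -0.77 (SE 0.30, adjusted p = 0.483). The median of the further genes was -0.01 at 0.5 Gy and -0.06 at 0.2 Gy.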

How the data were processed

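The authors quantified the reads with Salmon against mouse transcripts of GRCm38 and deposited, for each library, an estimated count and a TPM value per transcript, neither normalized between libraries nor filtered. The TPM values were computed by the authors with the same tool. Reads were paired-end in the protocol and single-end in the series' design text, and no strand setting is given. The deposited tables of comparisons (fold changes and p-values from DESeq2 1.24.0) and of pooled normalized counts were not used.

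Gene values are sums of the estimated counts of a GENCODE gene's transcripts, which left out 402 of 130740 transcripts and at most 0.495% of the reads of a library, and rounded. Tests used edgeR 4.0.16 (TMM, filterByExpr, quasi-likelihood test) and DESeq2 1.42.0 as an alternative, in R 4.3.3, with Benjamini-Hochberg adjustment over all genes tested. The steps were run on simulated data with large changes set only in genes above a minimum level. That run does not show how small changes or weak genes would be called. The 2.5 h library of 0.2 Gy entered no test, since 4 and 6 h were the late libraries of that dose. Intervals are 95% intervals of the fits. Early and late libraries were compared in fits of 8 libraries (0.5 Gy) and 11 libraries (0.2 Gy and the difference, at 0, 1, 4 and 6 h, so without the 2.5 h library of either dose).

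The genes and lists were chosen with earlier results of these data known. Values in every library are given for the 8 genes with the highest mean TPM at 0 h, called genes, the 4 largest rises and 4 largest falls late against early at 0.5 Gy, and genes whose late and early libraries did not overlap. Other genes are given by range. Promoters came from RefSeq (GRCm38.p6). In the study's sequencing table, the read totals of the 1 and 4 h libraries carry the generations the other way round from the files, so a crossed block was tried too. Further alternatives were other size factors, no filter, protein-coding transcripts only, other read minimums and leaving out each library. Family shares of the recombination genes are not reported here.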

Additional observations from a re-analysis of the deposited data

Results flagged for a closer look

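*Hormad2*, which encodes a HORMA domain protein of unsynapsed axes, had 8.84 CPM in the 2.5 h library of 0.2 Gy, which entered no test. This was 2.98-fold above the highest of the 3 libraries of 0 h, 2.97 CPM, and above the highest of the other 12 libraries, 7.98 CPM in replicate 1 of 1 h at 0.5 Gy. Of 16789 genes with 10 reads in every library, 135 (0.804%) were over 2-fold above their highest 0 h library in it. The library is the only one of its time and dose, and the difference was not tested.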

How the results depend on the processing

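Under the alternative settings, 138 values stayed on the same side or within the limits used and 8 moved. Without the filter on low counts, 1 gene, *Rad21l*, was called at 2.5 h of 0.5 Gy in place of 0 (adjusted p = 0.0290), on the single library with no reads. DESeq2's Wald test called 1 gene late against early at 0.5 Gy (*Meioc*) and 1 at 0.2 Gy (*Spata22*), where edgeR called 0. The cause was not tested. The median change at 0.2 Gy was -0.23 with protein-coding transcripts only, against -0.09, and ran from -0.44 to 0.0899 without 1 library each, the ends being those without 4 h and without 6 h of 0.2 Gy, and was 0.001 without 1 h of 0.2 Gy. At 0.5 Gy it ran from -0.14 to -0.05 without 1 library each, and all counts of called genes were 0 in these fits, which could not give the 2.5 and 6 h comparisons without their only library. By share of estimated reads in place of TPM, the median share in the family was 0.741% for *Rec8*, 2.53% for *Rad21l*, 5.22% for *Stag3* and 65.3% for *Smc1b*, against 4.89%, 5.90%, 9.78% and 57.4% of TPM. Genes with enough reads in every library numbered 26 at a minimum of 5 reads, 24 at 20, 22 on protein-coding transcripts alone, 19 at 1 TPM, and 25 to 26 without 1 library each.

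With a replicate block for the generation, as labelled or crossed at 1 and 4 h, 0 genes of the list were called in any comparison of 0.5 Gy, and the median late against early was -0.09 as labelled and -0.12 crossed. The numbers were not taken to pair the samples, since the deviations of same-numbered libraries from the group means correlated at 0.163, 0.097 and 0.138 over 22588 genes, 1 of them under 0.1. The block changed no call. Counts limit the genes below 1 TPM, where a library can hold fewer than 10 reads of a gene. In the comparisons of single times with 0 h, the 95% intervals span over a 2-fold change in both directions for many of them. Late against early at 0.5 Gy, intervals such as those of *Rec8* (-2.07 to 0.75) and *Spo11* (-0.31 to 2.03) passed a 2-fold change in 1 direction.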
